A study of Mus musculus with 10 samples.

Results

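Mt1 and Mt3 encode metallothioneins, and each was read by 1 oligonucleotide probe on arrays of the prefrontal cortex of arthritic and control mice. The members are the genes whose probes the platform's annotation assigns to Mt1 or Mt3, 2 of 8726 genes with a probe. The annotation lists 9078 probes, of which 4125 could be tested. The annotation also holds 1 probe for Mt4 and 0 probes for Mt2. The mice were 8-week-old males of DBA/1, an inbred strain prone to arthritis after immunisation with type II collagen. Animals of the collagen arm had an intradermal injection of type II collagen, 100 µl, mixed with 100 µl of Complete Freund's adjuvant. Control animals had 200 µl of the adjuvant alone, and LPS, a bacterial cell wall component, was injected into both arms at day 24. The control arm was therefore not untreated, and the collagen arm received the smaller adjuvant volume, so every ratio holds collagen and adjuvant volume together. The time of sacrifice is written ambiguously in the labels and was not used.

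Metallothioneins are small cysteine-rich proteins that bind zinc and copper. Mt1 and Mt2 are expressed in many tissues and, in brain, mostly in astrocytes. Their transcription is raised by zinc through the metal-responsive factor MTF1, and by glucocorticoids and inflammatory cytokines. Mt3 is found mainly in the nervous system, was first described in human brain as an inhibitor of neurite growth in culture, and responds little to metals. Mt4 belongs to stratified epithelium. In the RefSeq order of genes on mouse chromosome 8 (GRCm38.p6) the family lies together as Mt4, Mt3, Mt2 and Mt1. Mt1 and Mt2 are close in sequence, and whether the Mt1 probe also read Mt2 RNA was not tested.

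The promoters of the members are shown because metal control of this family is read through short metal response elements near the start site. The windows run over 250 bases before and 50 bases after 1 RefSeq start of each gene (GRCm38.p6), and capitals mark the core of the element, searched as TGCGCNC and TGCACNC on both strands.
Mt1 (chr8:94178839-94179138, + strand): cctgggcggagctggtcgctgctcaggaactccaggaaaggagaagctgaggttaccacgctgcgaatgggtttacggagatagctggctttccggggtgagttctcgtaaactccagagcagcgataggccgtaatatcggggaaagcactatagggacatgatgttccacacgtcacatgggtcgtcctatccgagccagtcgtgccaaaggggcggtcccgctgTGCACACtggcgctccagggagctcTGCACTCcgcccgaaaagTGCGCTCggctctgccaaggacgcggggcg
Mt3 (chr8:94152357-94152656, + strand): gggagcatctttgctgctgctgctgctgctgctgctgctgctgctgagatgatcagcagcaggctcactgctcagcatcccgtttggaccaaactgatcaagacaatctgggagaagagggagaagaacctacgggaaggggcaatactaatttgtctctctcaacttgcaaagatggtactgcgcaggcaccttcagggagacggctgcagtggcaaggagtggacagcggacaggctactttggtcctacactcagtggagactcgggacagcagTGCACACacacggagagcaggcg
The Mt1 window held 3 matches, beginning at positions -23, 3 and 21 from the start site, and 1.97% of the 32851 promoters in the RefSeq table held as many or more. The Mt3 window held 1 match, at position 28, and 25.7% of promoters held at least 1. The Mt2 window held 4 matches, a count reached by 0.518% of promoters. A match of letters is a description and not a measured binding site, and the counts hold for these windows alone. Positions and counts rest on the 1 RefSeq start used for each gene. Whether transcription begins there in cortex was not tested.

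The 10 arrays formed 5 dye-swap pairs, each array carrying collagen RNA and control RNA together. Collagen RNA was labelled with Cy5 on 5 arrays and with Cy3 on the other 5. By the numbers in their titles, which run 1, 2, 3, 1 and 2, pairs 1 and 4 were averaged into replicate 1, pairs 2 and 5 into replicate 2, and pair 3 was replicate 3 by itself. The number of mice per replicate is not stated, so p-values measure only how far these values scatter, a scatter that may be technical. Each array had 3 readings, and the share of listed spots measured in both channels was 45.2% to 85.9% per array. The dye behind each channel letter is not given in the headers. Cy3 was assigned to channel A and Cy5 to channel B, which makes each direction below likely and not settled. The opposite assignment would turn all signs and leave all sizes.

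Although all mice are labelled male, a probe for Xist, an RNA of the inactive X chromosome of females, had pair log2 ratios of collagen over control of 2.07, 0.02, 0.89 and 0.62 in pairs 1, 2, 3 and 5. Its array of pair 4 with collagen on Cy5 was at -0.20. A second Xist probe had both arrays of pairs 3 and 4, with pair values of 4.30 and 5.82, and single arrays of pairs 1 and 5, at 1.72 and 1.73. Kdm5d, a gene of the Y chromosome, had pair values of 0.26, -0.33, -0.84, 0.32 and 0.05 in pairs 1 to 5. Its arrays ran from -3.85 to -1.31 with collagen on Cy5 and from 1.84 to 3.40 with collagen on Cy3. Uty, also of the Y chromosome, had values on single arrays only. Without pair 1 the fitted log2 ratio of Mt1 was 0.24, without pair 2 it was 0.19 and without pair 3 it was 0.14 by limma. Without pair 4 the ratio was 0.17 and without pair 5 it was 0.22. Mt3 had pair values in pairs 3, 4 and 5, at 0.26, 0.31 and -0.06. Each of these 3 pairs had an Xist value above 0 from at least 1 probe. The part of the Xist difference in the results below was not tested.

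Mt1 was among the brighter spots. In reading 1 on the arrays with collagen on Cy5, its background-corrected intensity, in units of 1000, was 1016, 2506, 1031, 151 and 2691 in the collagen channel of pairs 1 to 5, against 747, 1106, 314, 139 and 1033 in the control channel. On the arrays with collagen on Cy3 it was 340, 1760, 298, 1250 and 814 in the collagen channel, against 1227, 2174, 297, 2731 and 2192 in the control channel. In this reading the collagen channel was the brighter on all 5 arrays of the first orientation, although in readings 2 and 3 of pair 4 it was at 253 and 583, against 323 and 732 in the control channel. On the second orientation the control channel was the brighter in pairs 1, 2, 4 and 5 and the channels were nearly level in pair 3. The intensity ranges of the arms overlapped. On the dimmest array, that of pair 4 with collagen on Cy5, the corrected intensity was 0.718 times the local background in the collagen channel and 0.688 times in the control channel. The spot was brighter than 86.4% to 97.6% of the measured spots of its array. Its saturation factor was 1 in all readings, as was that of the faint Mt3 reading of pair 1, so the factor does not set Mt1 apart.

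Mt3, the brain form, was measured in both channels on all readings of pairs 3, 4 and 5 alone. With collagen on Cy5, its intensity in units of 1000 was 255, 383 and 1522 in the collagen channel of these pairs, against 97.6, 377 and 777 in the control channel. With collagen on Cy3 it was 226, 805 and 480 in the collagen channel, against 220, 1572 and 1208 in the control channel. Both arms were lowest in pair 3, and their ranges overlapped. On these arrays Mt3 was brighter than 78.9% to 96.6% of spots.

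The probe was faint or missing in pairs 1 and 2. The single array there with a ratio was the array of pair 1 with collagen on Cy3, in 1 reading, at 13.9 in the collagen channel and 4.37 in the control channel in the same units, with 2.63% of spots dimmer. The Mt3 spot covered 22 to 113 pixels in pairs 1 and 2 and 169 to 226 pixels in pairs 3 to 5. Of all listed probes, 14.6% were measured in pairs 3, 4 and 5 and in neither of the first pairs, so the pattern is common on these slides. In the Mt3 grid, 13.8% and 12.7% of probes were measured in pairs 1 and 2, against 52.0% and 41.1% over all grids. Mt3 values therefore describe pairs 3, 4 and 5, and its missing values say nothing about its level in pairs 1 and 2.

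**Figure D1:**
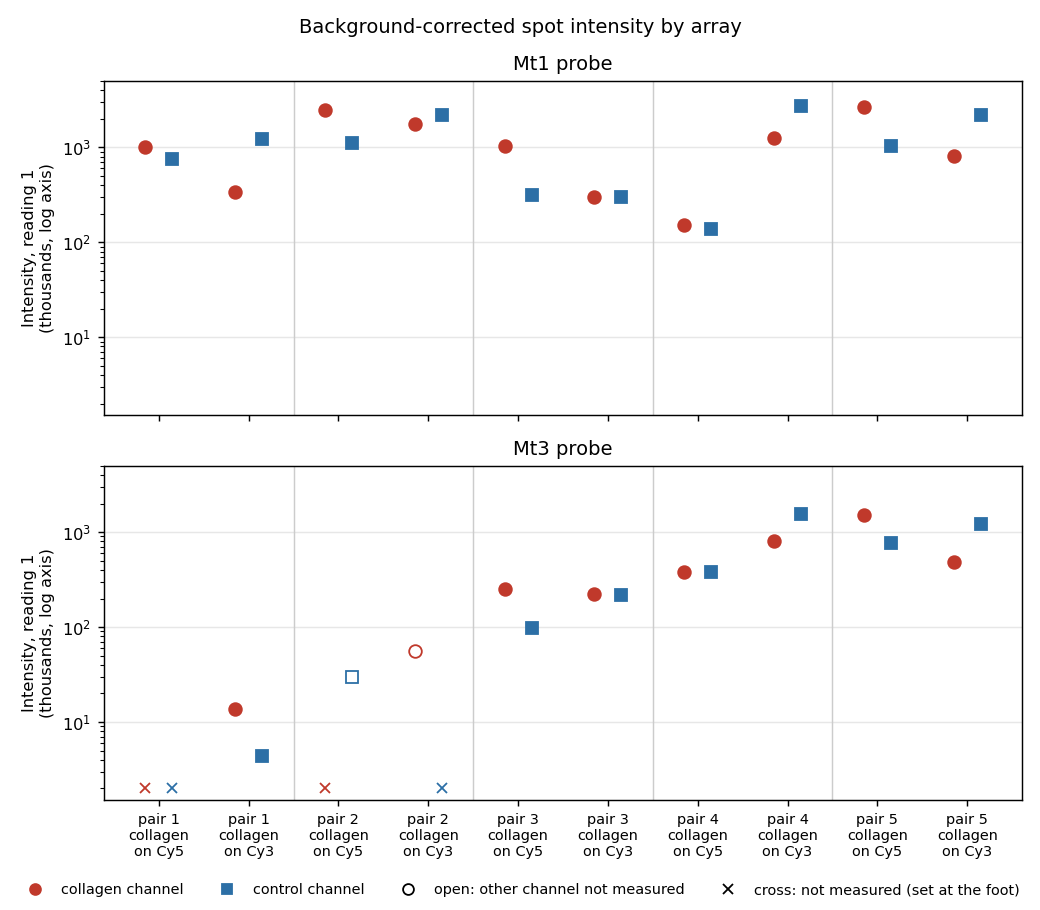
Background-corrected intensity of the Mt1 and Mt3 probes in reading 1 (units of 1000, log axis) on each of the 10 arrays, with the collagen channel as circles and the control channel as squares. Open symbols mark a spot whose other channel was not measured and crosses mark unmeasured channels. Mt1 is seen on all 10 arrays, whereas Mt3 has both channels on 6 arrays of pairs 3 to 5 and, faintly, on 1 array of pair 1.

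Mt4 was often measured in the channel taken as Cy3 and rarely in the channel taken as Cy5. It was measured in both channels on 2 arrays, at a log2 ratio of -0.12 (mean of 3 readings) in pair 3 with collagen on Cy3 and 0.21 (1 reading) in pair 5 with collagen on Cy5. It had no dye-swap pair and was not tested.

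After loess, the log2 ratio of collagen over control of Mt1 was 0.62, 0.36, 0.60, 1.11 and 0.75 in pairs 1 to 5 on the arrays with collagen on Cy5. On the arrays with collagen on Cy3 it was -0.53, 0.01, 0.06, -0.58 and -0.59. The orientations did not overlap, with means of 0.69 ± 0.27 and -0.33 ± 0.33 (SD, n = 5 arrays each). Readings of an array varied little, with an SD of 0.003 to 0.094, so the gap between orientations is larger than the reading error. Without normalisation the ratios were 0.41, 1.12, 1.61, -0.18 and 1.27 with collagen on Cy5 and -1.78, -0.30, 0.08, -1.14 and -1.31 with collagen on Cy3.

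Averaging the arrays of a pair takes off a dye effect that is equal on both. The pair values of Mt1 were 0.04, 0.18, 0.33, 0.27 and 0.08, all above 0, with a mean of 0.18 ± 0.12 (SD, n = 5 pairs) and p = 0.0625 by a two-sided exact sign-flip test, the smallest p that 5 pairs allow. That test counts same-numbered pairs as separate. Over the 3 replicates the exact test gave p = 0.25, again the smallest possible. The signs of the pair values depend on normalisation. Without any, the pair values were -0.68, 0.41, 0.85, -0.66 and -0.02, below 0 in 3 of 5 pairs. The fitted Mt1 ratio was then 0.12 (SE 0.29), a setting chosen after seeing the data. Of the 1845 probes measured in all 5 pairs (20.3% of those listed), 6.56% were also above 0 in each. The replicate values were 0.15, 0.13 and 0.33, for a log2 ratio of 0.21 (SE 0.10, n = 3), or 1.15-fold. The 95% interval ran from -0.03 to 0.44. The adjusted p by limma was 0.643 (unadjusted 0.0736), so Mt1 did not pass the test. Being above 0 in all 3 replicates held for 14.4% of tested probes, and 7.44% had a higher ratio than Mt1.

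For Mt3 the log2 ratios of collagen over control in pairs 3, 4 and 5 were 0.24, 0.97 and 0.42 with collagen on Cy5 and 0.29, -0.35 and -0.53 with collagen on Cy3. The lone reading of pair 1 gave 0.89 and entered no pair value. Pair values were 0.26, 0.31 and -0.06, each standing for a different replicate, so 2 of 3 were above 0 and pair 5 was below it. The mean log2 ratio was 0.17 ± 0.20 (SD, n = 3), with a limma SE of 0.11, or 1.13-fold, and the 95% interval ran from -0.09 to 0.44. The adjusted p by limma was 0.651 (unadjusted 0.168), and the exact sign-flip test gave p = 0.5, where 3 values allow no p below 0.25. A higher ratio than that of Mt3 was held by 11.0% of tested probes.

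**Figure D2:**
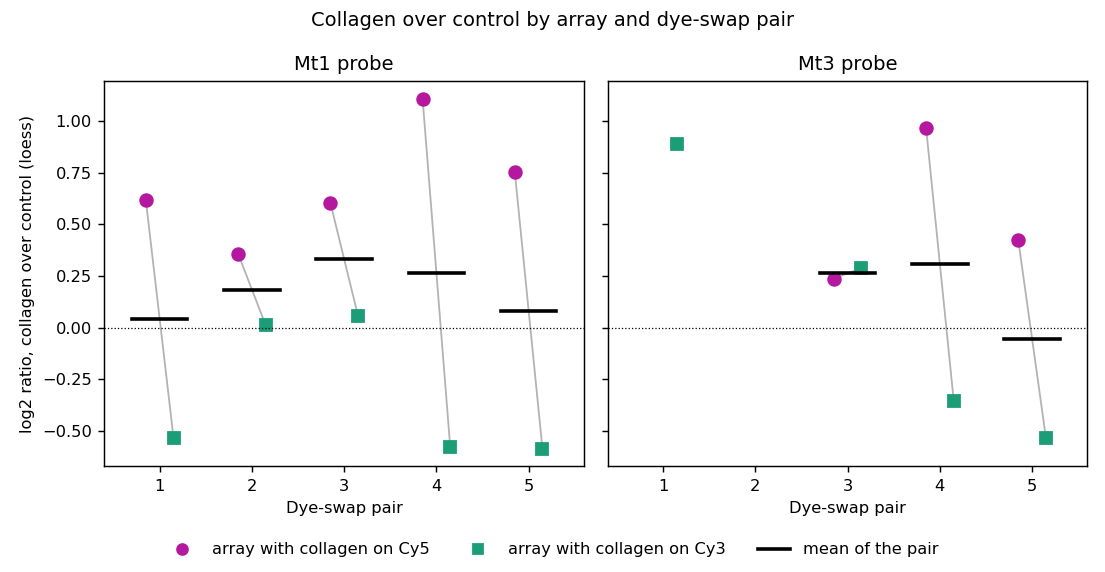
Log2 ratio of collagen over control after loess for the Mt1 and Mt3 probes, with arrays with collagen on Cy5 as circles, arrays with collagen on Cy3 as squares and pair means as bars. For Mt1 every circle lies above the square of its pair and the 5 bars run between 0.04 and 0.33, while Mt3 has bars in pairs 3, 4 and 5, at 0.26, 0.31 and -0.06.

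Across all probes the same fit called 0 of 4125 (0%) at an adjusted p of 0.05 by limma, and 275 (6.67%) passed unadjusted, 100 higher (2.42%) and 175 lower (4.24%). Neither member was among the 275. The replicate spread of Mt1 was on the low side, as 26.5% of tested probes had a smaller SD, and that of Mt3 was 0.20, with 58.2% smaller. In bulk tissue, fewer cells of a type and less RNA per cell cannot be told apart. Reading 3 was brighter than reading 1 in channel A, by a median of 1.93 to 2.43 times on the arrays of pairs 1 to 3 and 4.19 to 4.61 times on those of pairs 4 and 5, a difference for which the labels name no batch. The mean log2 ratio of Mt1 was 0.19 over pairs 1 to 3 and 0.17 over pairs 4 and 5. For Mt3 they were 0.26 in pair 3 and 0.13 over pairs 4 and 5.

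With loess over all grids together, the dye effect of both probes exceeded their collagen ratios in size. The log2 ratio of Cy5 over Cy3 for Mt1 was 0.57, 0.17, 0.27, 0.84 and 0.67 in pairs 1 to 5. It was above 0 in every pair, with a fitted value of 0.47 (SE 0.13, n = 3) and an adjusted p by limma of 0.127. For Mt3 it was -0.03, 0.66 and 0.48 in pairs 3, 4 and 5, with a fitted value of 0.37 (SE 0.15, n = 3) and an adjusted p by limma of 0.231. Of all tested probes 88 (2.13%) passed the test for dye and 831 (20.1%) an unadjusted p of 0.05, as Mt1 (0.00722) and Mt3 (0.0422) did by limma. Of the tested probes, 1.55% had a higher dye ratio than Mt1 and 5.21% a higher one than Mt3. A collagen ratio taken from arrays of a single orientation carries the dye effect as well. With collagen on Cy5 alone the fitted Mt1 ratio was 0.67 (SE 0.16, adjusted p 0.168 by limma), and with collagen on Cy3 alone it was -0.26 (SE 0.18, adjusted p 0.505). The corresponding Mt3 ratios were 0.54 (SE 0.19, adjusted p 0.320) and 0.01 (SE 0.22, adjusted p 0.991). The last of these took in the lone faint reading of pair 1. Over whole pairs, a setting chosen after seeing the data, Mt3 with collagen on Cy3 alone was at -0.20 (SE 0.20, adjusted p 0.619 by limma).

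**Figure D3:**
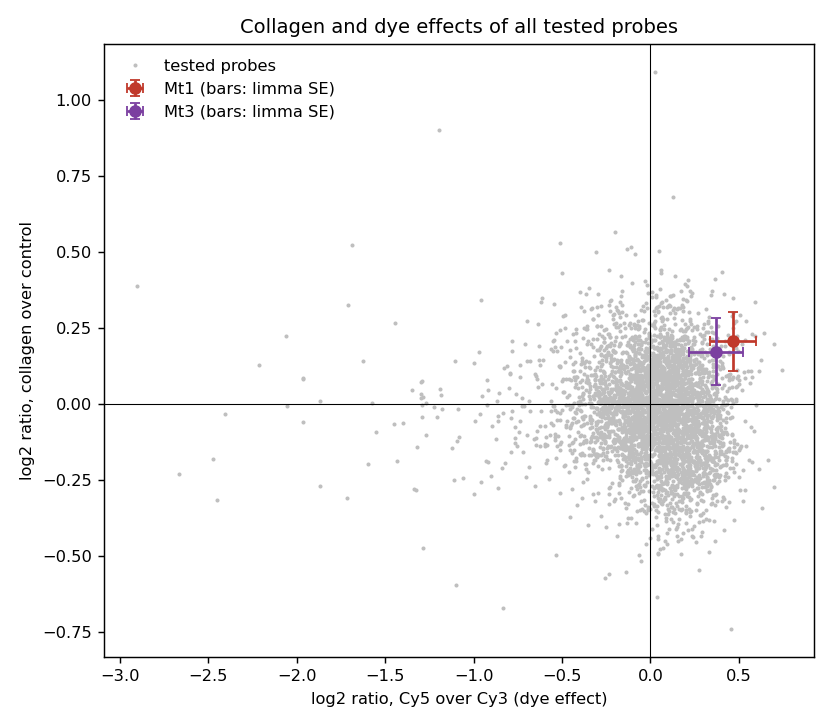
Fitted log2 ratio of collagen over control (vertical) against the fitted log2 ratio of Cy5 over Cy3 (horizontal) for all 4125 tested probes, with Mt1 and Mt3 in colour and bars of 1 limma SE. Mt1, at 0.47 and 0.21, and Mt3, at 0.37 and 0.17, lie toward the right of the cloud of points and above its middle.

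The probes lie in different grids of the slide. In the Mt1 grid, in row 3 and column 3 of the grids, the median collagen ratio of 125 tested probes was -0.14, and Mt1 lay 0.34 above it. In the Mt3 grid, in row 9 and column 1, the median of 59 probes was 0.05, and Mt3 lay 0.13 above it. The median over all tested probes was -0.02. Print-tip loess, which fits each grid by itself, gave Mt1 a log2 ratio of 0.27 (SE 0.13) and Mt3 one of 0.25 (SE 0.11), both with an adjusted p of 0.835 by limma. By pair these were 0.03, 0.15, 0.66, 0.02 and 0.09 for Mt1, so pair 3 was then far above the other pairs, and 0.35, 0.47 and -0.05 for Mt3 in pairs 3, 4 and 5. Under print-tip loess the dye effect of Mt1 was 0.23 (SE 0.12), below its collagen ratio of 0.27. That of Mt3 was 0.46 (SE 0.13), above its collagen ratio of 0.25.

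The log base and direction of the authors' deposited table are not stated, and its values were used as they stand. In it the Mt1 values were 0.44, 0.21, 0.14, 0.41 and 0.59 on the arrays with collagen on Cy5 of pairs 1 to 5. On those with collagen on Cy3 they were -0.38, 0.05, 0.29, -0.47 and -0.39. The authors' deposited table gave Mt3 0.15, 0.84 and 0.37 with collagen on Cy5 and 0.11, -0.26 and -0.62 with collagen on Cy3 in pairs 3, 4 and 5, and no value in pairs 1 and 2. The signs matched those of the loess ratios on all 16 arrays with both values, and the means of the table's values in the same limma fit were 0.11 for Mt1 and 0.10 for Mt3. The table comes from the same arrays, so the match of signs does not settle the direction.

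**Figure D4:**
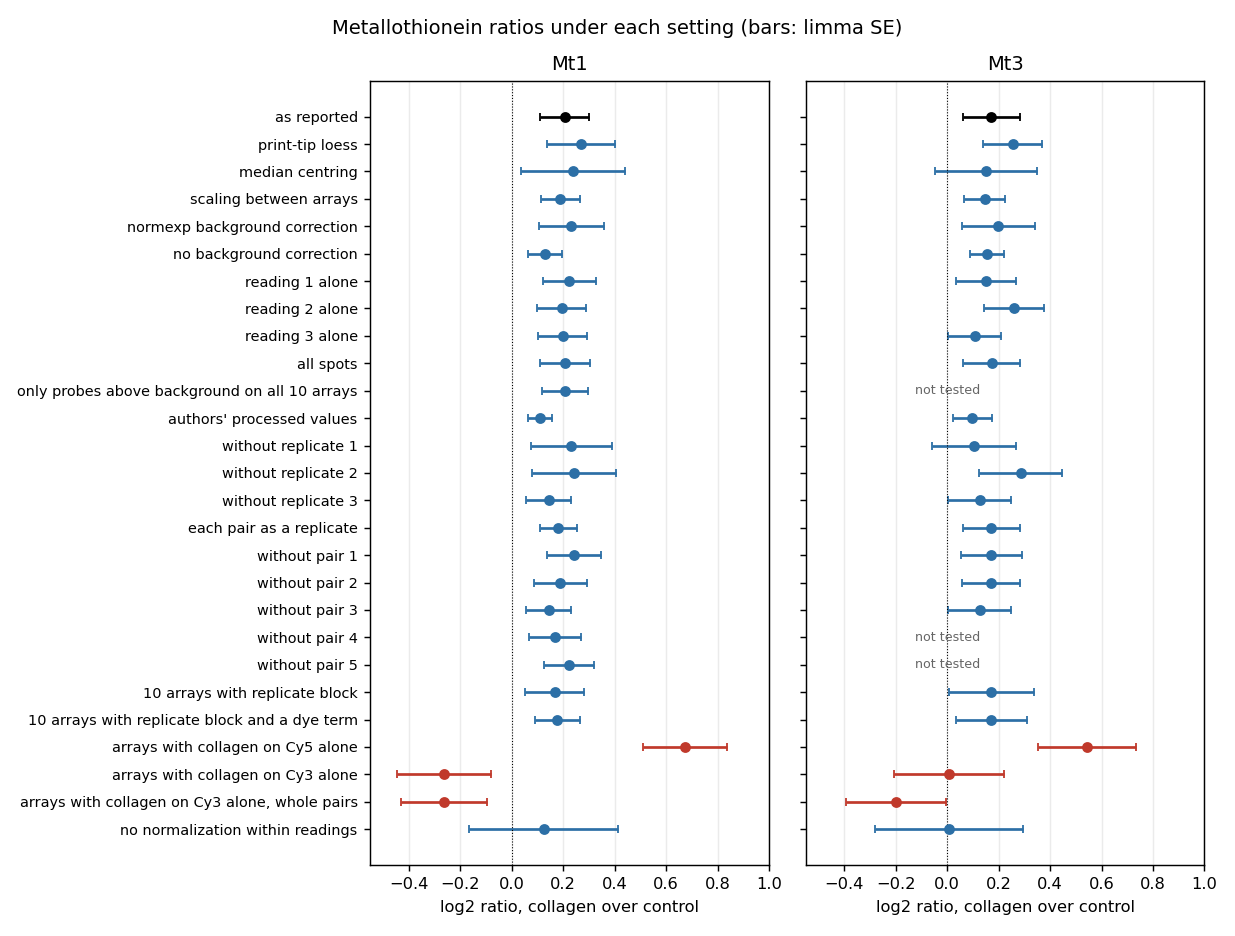
Fitted log2 ratio of collagen over control for Mt1 and Mt3 as reported (black) and under each other setting (blue, or red for arrays of a single dye orientation), with bars of 1 limma SE. The authors' processed values are drawn on the same axis, although the base of their logarithm is not stated. Mt1 is above 0 at every setting except arrays with collagen on Cy3 alone, at -0.26, and Mt3 at every setting except whole pairs with collagen on Cy3 alone, at -0.20.

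Of the genes near the family on chromosome 8, 3 were tested. Gnao1, a G protein subunit of neurons, had a log2 ratio of collagen over control of -0.13 (SE 0.10), Nudt21, a factor of mRNA 3′ end processing, one of -0.27 (SE 0.14), and Herpud1, an endoplasmic reticulum stress protein, one of 0.03 (SE 0.09). None of the 3 passed the test, and their differences from Mt1 and Mt3 were not tested.

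Of 25 genes of zinc transport and sensing, 9 had a probe and 3 were tested, with 1 ratio above 0, 2 below and a median of -0.11. Slc30a3, which loads zinc into synaptic vesicles, had a log2 ratio of 0.08 (SE 0.10). Slc30a5, a zinc transporter of the secretory pathway, had -0.11 (SE 0.11), as did Slc39a13, a zinc transporter of the ZIP family (SE 0.09). Mtf1, the zinc sensor of the family's promoters, had no probe. Of 25 genes of copper and iron handling 13 had a probe and 4 were tested, with a median of -0.06. Cox17, the copper chaperone of cytochrome oxidase, had 0.23 (SE 0.11) and was measured in pairs 3 to 5, as Mt3 was. Aco1, an iron-responsive RNA-binding protein, had -0.02 (SE 0.19), Cp, the copper ferroxidase ceruloplasmin, -0.10 (SE 0.12), and Hfe, a regulator of iron uptake, -0.26 (SE 0.13). These values depend on the normalisation. Under print-tip loess Cox17, Aco1, Cp and Hfe were at 0.18, 0.14, 0.12 and -0.002, so Aco1 and Cp changed sign. Slc30a3, Slc30a5 and Slc39a13 were then at -0.004, -0.08 and -0.02. The part of slide position in these ratios was not tested.

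Of 36 genes of antioxidant defence, 20 had a probe and 15 were tested. Their log2 ratios of collagen over control were above 0 for 12 and below 0 for 3, with a median of 0.08, beside 45.5% above 0 and a median of -0.02 over all probes. The highest were the glutathione S-transferases Gstm1, at 0.17 (SE 0.09), and Gstm5, at 0.16 (SE 0.09), both above 0 in all replicates. The lowest were Sod1, the copper and zinc superoxide dismutase, at -0.005 (SE 0.10), and Hmox2, the constitutive haem oxygenase, at -0.01 (SE 0.10). Of 18 genes known to act on metallothionein transcription 11 had a probe and 4 were tested, with a median of -0.08. Il1b, an inflammatory cytokine, had 0.11 (SE 0.09) and Il6ra, the interleukin 6 receptor, 0.00 (SE 0.10). Usf2, a transcription factor that binds the Mt1 promoter, had -0.17 (SE 0.10), and the general factor Sp1 had -0.19 (SE 0.11). No gene of these lists passed the test, at an adjusted or an unadjusted p of 0.05. Counts and medians of the lists are from loess over all grids together. Under print-tip loess Gstm1, Gstm5, Sod1 and Hmox2 were at 0.12, 0.07, 0.04 and 0.13, so Sod1 and Hmox2 changed sign. Il1b, Il6ra, Usf2 and Sp1 were then at 0.03, -0.05, -0.009 and -0.05.

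**Figure D5:**
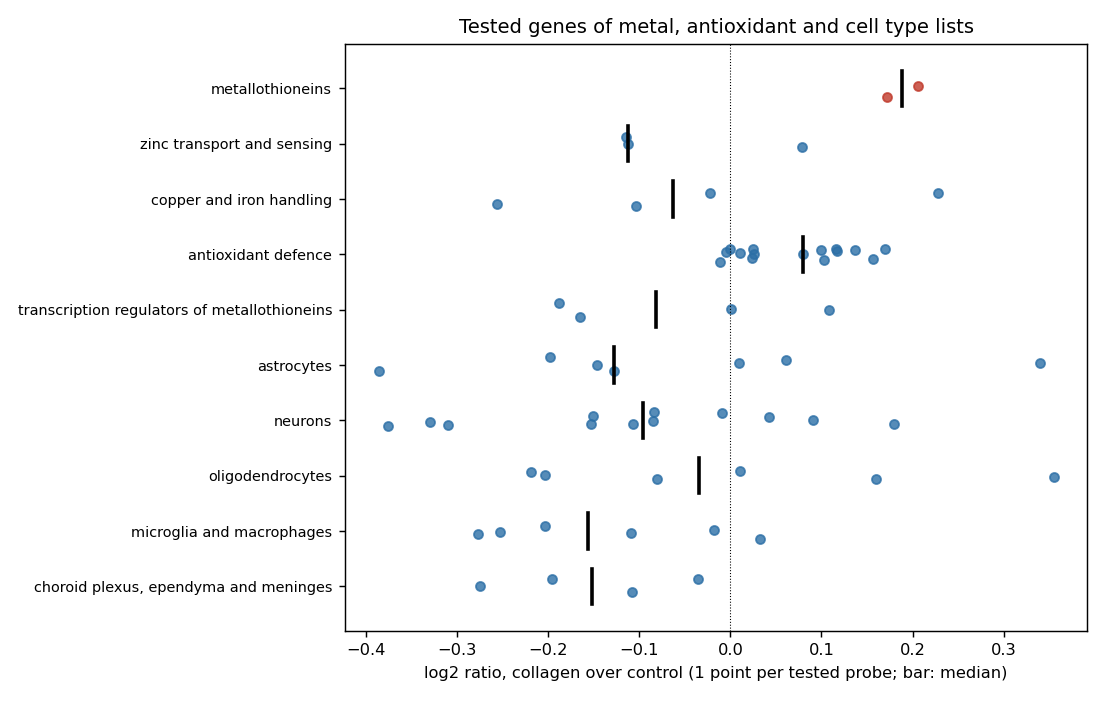
Log2 ratio of collagen over control of each tested probe of the metallothionein, metal, antioxidant and cell type lists that had 2 or more tested probes, with list medians as bars. The metallothioneins lie at 0.17 and 0.21, the antioxidant genes have a median of 0.08, and the other lists have medians between -0.16 and -0.03. Ratios are after loess over all grids together.

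Markers of the cells that could carry these RNAs are given for the whole lists, since astrocytes hold much of the Mt1 of brain. Of 20 astrocyte markers 8 had a probe and 7 were tested, with 3 log2 ratios above 0, 4 below and a median of -0.13. The defining markers Gfap, Aqp4, Slc1a2 and Aldoc had no probe. The tested ratios ran from 0.34 (SE 0.12) for Gjb6, a gap junction protein, to -0.39 (SE 0.10) for Slc4a4, a bicarbonate transporter, both past an unadjusted p of 0.05 and chosen for naming after their values were seen. Under print-tip loess Gjb6, Slc1a3 and Sox9 were at 0.25, 0.02 and 0.05. Atp1b2, Ntsr2, Aldh1l1 and Slc4a4 were then at -0.008, -0.02, -0.003 and -0.20, and these 4 lie in grids of row 1. The list medians are from loess over all grids together, and the part of slide position in them was not tested. Neuron markers had 3 above 0 and 9 below of 12 tested, with a median of -0.10, and oligodendrocyte markers 3 and 3 of 6, with a median of -0.03. Microglia and macrophage markers had 1 above and 5 below of 6 (median -0.16), and those of choroid plexus, ependyma and meninges 0 above and 4 below of 4 (median -0.15). Vessel markers and blood cell markers had 1 tested gene each, Pdgfrb at -0.38 (SE 0.12) and S100a8 at 0.05 (SE 0.17), both named after their values were seen. The neuron markers Camk2a, at -0.38 (SE 0.10), and Nefm, at -0.33 (SE 0.11), and the oligodendrocyte marker Mal, at 0.35 (SE 0.09), also passed unadjusted, as Pdgfrb did, and were likewise named after the fact. None of the marker genes passed the adjusted test, which no tested probe passed and which therefore does not bear on cell makeup. The part of cell makeup in the Mt1 and Mt3 ratios was not tested.

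The probes whose log2 ratio varied most like that of Mt1 were found over the 10 arrays, after taking off each probe's mean in each dye orientation, among 1842 probes measured on all 10 arrays. They were Vps28, of endosomal sorting (Pearson r = 0.96), Ndufs7, of respiratory complex I (0.945), Nop10, of box H/ACA small nucleolar particles (0.936), and Cox6a1, of cytochrome oxidase, and Psmb2, of the proteasome (both 0.923). For Mt3, over the 6 arrays of pairs 3 to 5 and 1843 probes, they were Spcs2 (r = 0.991), Dbi (0.987), Ndufs3 (0.986), Cinp (0.984) and Mt1 itself (0.981). The arrays share dye, slide position and brightness, and every array holds both RNAs, so these values describe likeness on these slides. The list depends on the processing. Without taking off the orientation means 0 of the 5 probes for Mt1 and 1 of the 5 for Mt3 stayed, and under print-tip loess 1 and 1 did, with the likeness of Mt1 to Mt3 at 0.61 and rank 252.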

How the data were processed

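The deposited readings of each array hold spot intensities already corrected for background in channels A and B, the local background intensity, the spot area and a saturation factor, a fraction, per the file headers. Scanner and image software: not given in the sources used here. The authors' deposited table holds 1 score for each spot on each array, on a log scale of unsettled base and direction. Dyes were coupled to aminoallyl cDNA, per the labels' protocols.

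Spots flagged X, Y or Z or not above 0 were dropped. Log2 ratios of B over A were normalised by global loess (span 0.3) in each of 3 readings and averaged. Turned to collagen over control, they were averaged within pairs, where both arrays had a value, and then within replicates. Unlisted spots (1002 of 10080) were left out. Symbols came from the platform table (9066 probes with 1 symbol, 12 with several) and were updated through RefSeq, which held 99.0% of them. Probes with 3 replicate values were fitted with lmFit and eBayes of limma 3.58.1 under R 4.3.3 (statmod 1.5.0 for the block), two-sided, and p-values were adjusted over 4125 probes by Benjamini-Hochberg. SE is limma's moderated standard error. The fit was tested on simulated data.

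Cy3 was assigned to channel A from the order of channels in the labels. Its background was the higher on 9 of 10 arrays (ratio of A to B 0.996 to 2.47 over all 10), which does not settle it. The authors' table correlated at 0.717 to 0.899 with print-tip ratios turned this way, which does not settle it either, since the table's direction is not stated. The number of arrays limits the precision. Members and lists were chosen with earlier results of these data known. Genes were named by rule: the members, the 2 highest and 2 lowest tested genes of each pathway list, and the 5 probes most like each member. Cell type markers, Xist, Kdm5d, Uty and the chromosome 8 neighbours fall outside it and were chosen with values known. Alternatives covered normalisation, background, readings, filters, left-out replicates and pairs, the replicate number as a block and single dye orientations. Promoters came from the RefSeq table of GRCm38.p6.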

Additional observations from a re-analysis of the deposited data

How the results depend on the processing

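Mt1 kept its direction and its side of the threshold in 24 of 26 alternatives and Mt3 in 22 of 23. The exceptions were arrays with collagen on Cy3 alone, where the dye does not cancel: Mt1 was at -0.26 over all arrays and over whole pairs, and Mt3 at -0.20 over whole pairs, a setting chosen after seeing the data. These counts hold settings that could not move a ratio or that repeat another. Mt3 has no pair value in pairs 1 and 2, so leaving out either left it at 0.17. Mt3 was also at 0.17 with each pair as a replicate and in both block fits. For Mt1, keeping only probes above background on all 10 arrays left 0.21. Leaving out pair 3 is leaving out replicate 3, and for Mt1 the settings with collagen on Cy3 alone coincide. The counts are therefore not counts of separate checks. Adjusted p-values by limma ran from 0.168 to 1.00 for Mt1 and 0.320 to 1.00 for Mt3. Leaving out 1 replicate gave 0.14 to 0.24 for Mt1, 0.10 to 0.29 for Mt3, 0.35 to 0.57 for the Mt1 dye effect, 0.23 to 0.57 for that of Mt3, and 0 to 1 probes called. The dye effect of Mt1 passed the test with no background correction (0.42, adjusted p 0.0157) and with each pair as a replicate (0.51, adjusted p 0.0424). It was lowest under print-tip loess (0.23, adjusted p 0.420 by limma). Without any normalisation, an alternative chosen after seeing the data, Mt1 was at 0.12 and Mt3 at 0.01 (SE 0.29 each). No background correction gave 0.13 and 0.15. The authors' table gave 0.11 and 0.10 on a log scale of unstated base, so these sizes cannot be set beside the log2 ratios. Against 0 probes called, 1 was called under scaling between arrays (Fap, adjusted p 0.0342), 1 in the authors' values (Efhc2, 0.0195) and 1 without replicate 2 (Xist, 6.77e-04), by limma. Against 275 probes at an unadjusted p of 0.05, out of 4125, counts ranged up to 412 with each pair as a replicate and 405 with no background correction. Lower by over 1.5 times were 183 under print-tip loess, 145 under median centring and 108 without normalisation, of 4125 each, and, where fewer probes were tested, 174 of 2785 for reading 2, 111 of 1845 above background on all 10 arrays, 172 of 2939 in the authors' values, 161 of 2778 without pair 4 and 120 of 2595 without pair 5. The causes were not tested. With the replicate number as a block over the 10 arrays, Mt1 was 0.17 (adjusted p 0.646) and Mt3 0.17 (0.731) by limma, with 0 probes called, and with a dye term 0.18 and 0.17. The correlation that limma estimated within blocks was -0.17, and -0.06 with the dye term. The block changed no call, but 0 probes were called without it too, so this does not bear on the replicate number. Correlations across probes were 0.0901 and 0.141 between same-numbered pairs and 0.0935 on average between others. These values are too few to tell whether a shared number makes pairs alike. The averaging into 3 replicates rests on the titles alone. Mt3 was not tested without pair 4, without pair 5 or with probes above background on all 10 arrays, since it lacked a replicate. Mt3 rests on 3 pairs, and its spot was faint elsewhere. Neither member's ratio was resolved, as the 95% intervals reach -0.03 and -0.09 on the low side and 0.44 on the high side.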
